A study of Caenorhabditis elegans with 6 samples.

Results

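Glycolysis splits glucose into pyruvate in the cytosol and yields ATP, and gluconeogenesis runs the same path backwards with its own enzymes at the irreversible steps. The citrate cycle burns the acetyl units made from pyruvate inside mitochondria. Nematodes also have a glyoxylate shunt, which animals such as mammals lack and which lets them build sugar from stored fat. The 35 genes described here encode enzymes of these 4 routes in Caenorhabditis elegans and, for ldh-1 and pdha-1, enzymes that act on the pyruvate formed. They were taken from the deposited table of 25212 genes by their names. All 35 were found, and all 35 passed the filter of a mean of at least 1 FPKM (fragments per kilobase of transcript, scaled to the depth of the library) over the 6 libraries, as did 13790 genes in all.

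The libraries hold poly(A)-selected RNA of whole animals of the wild-type strain N2. In the ASP group, 3 libraries came from worms given aspartame, which the series puts at 100 µM, and the 3 libraries of the other group are labelled Control. The labels do not give the age or sex of the worms, the length of exposure, or whether the sequenced worms had met the bacterium Pseudomonas aeruginosa that the series names for its immunity test. Each group has libraries numbered 1, 2 and 3. Counts summed to between 53558562 and 63581942 per library, and genes for ribosomal RNA took 3.24% to 7.19% of them. Some markers of stage differed by library number. Molting and cuticle markers summed to 278 and 327 FPKM in the libraries numbered 1, to 491 and 609 in those numbered 2 and to 1410 and 1251 in those numbered 3 (ASP, then Control). Oocyte and eggshell markers summed to 2245 and 2422, 1756 and 1754, and 903 and 1084 FPKM, and the yolk protein genes to 2547 and 3108, 2771 and 2558, and 922 and 999. The sums of other lists lay closer together, with means of 830, 794 and 754 FPKM in numbers 1, 2 and 3 for the germ line, 4078, 4188 and 3881 for the intestine and 326, 308 and 297 for neurons. Single markers still differed between numbers 3 and 1 (edgeR, adjusted p under 0.05, 37.5% of all genes). Of 9 germ line markers 1 was higher and 4 lower, of 8 intestine markers 3 and 2, of 6 epidermis markers 4 and 2, and of 9 neuron markers 0 and 0. Sperm markers summed to 4796, 4974 and 3243 FPKM in ASP 1, 2 and 3 and to 4681, 4397 and 4578 in Control. What a number stands for is not stated in the labels. Of the 9 marker lists examined, for yolk, oocyte, sperm, germ line, cuticle, intestine, body wall muscle, neurons and epidermis, none had a member at 0 in all libraries. In RNA of whole worms, fewer cells of a type and less RNA per cell cannot be told apart.

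Most of the 35 genes were strongly expressed. Their median level was 101.1 FPKM, against 13.09 for all genes tested, and 23 of 35 lay among the top 10% of genes, above 72.0 FPKM. The order of mean levels over the 6 libraries was led by 2 citrate cycle enzymes, mdh-2, the mitochondrial malate dehydrogenase (471 FPKM), and cts-1, citrate synthase (468 FPKM). They were followed by enol-1, enolase (405 FPKM), gpd-3, a glyceraldehyde-3-phosphate dehydrogenase (357 FPKM), and aldo-2, a fructose-bisphosphate aldolase (350 FPKM). The ranges over libraries overlapped between each of these genes and the next. The lowest levels belonged to pfk-1.2, a phosphofructokinase (9.30 FPKM), pyk-2, a pyruvate kinase (21.4 FPKM), and pfk-1.1, the other phosphofructokinase (22.3 FPKM). The ranges of the last 2 overlapped, and that of pfk-1.2 lay below both. Together the 35 genes made up between 0.673% and 0.794% of all FPKM in a library. Their sum was 5478, 5011 and 5192 FPKM in libraries 1, 2 and 3 of ASP, against 5867, 5366 and 5099 in those of Control, so the groups overlapped.

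**Figure D1:**
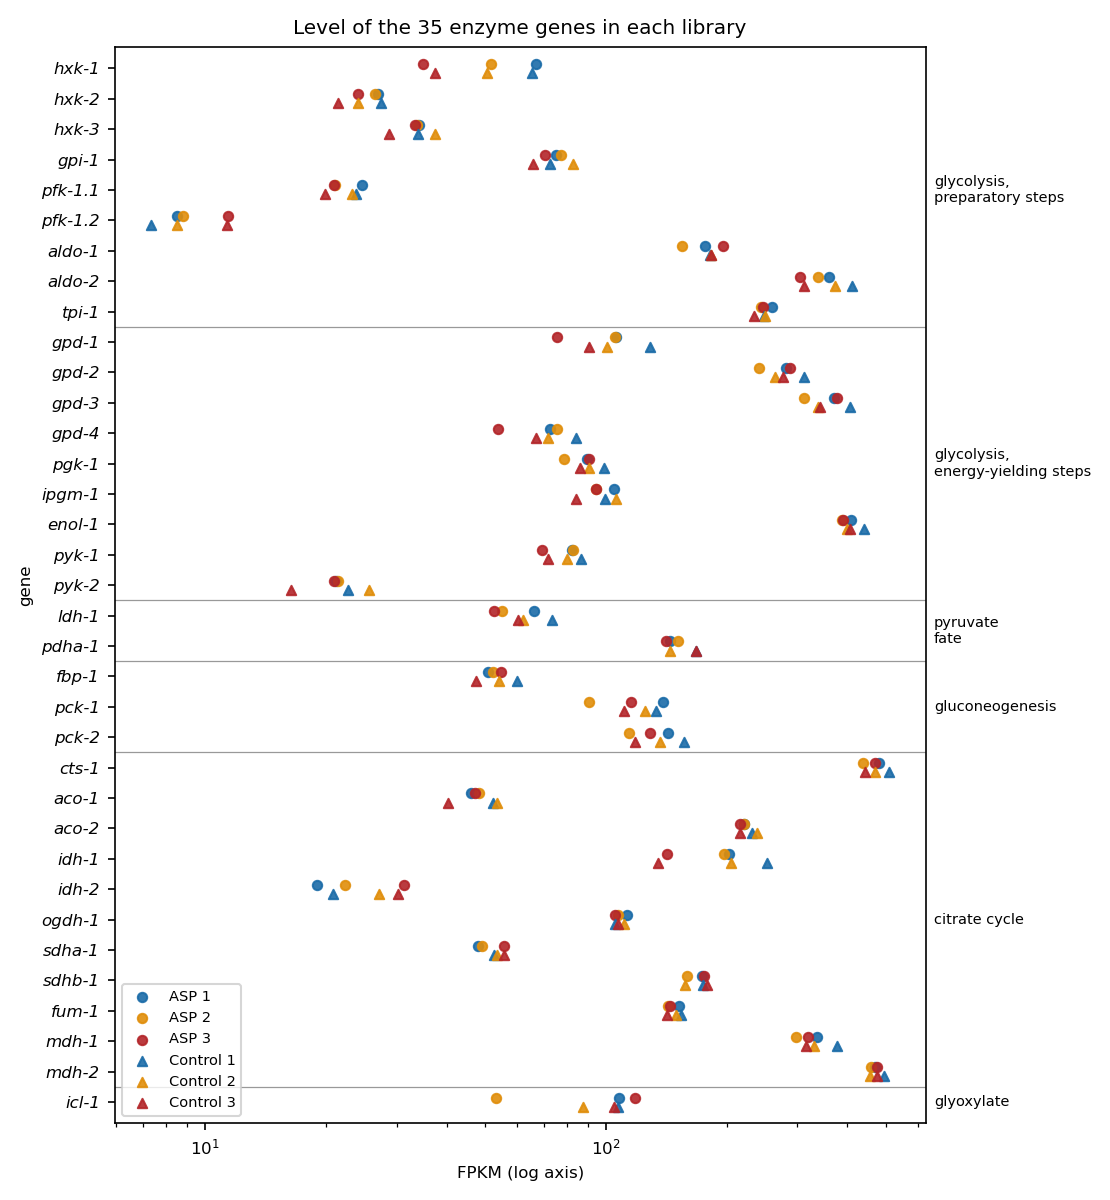
FPKM of each of the 35 genes (rows, grouped by pathway) in the 6 libraries, on a log axis; circles are ASP libraries, triangles are Control libraries, and colours give the library number. For hxk-1 the circle and triangle of 1 colour lie close together, the citrate cycle genes mdh-2 and cts-1 lie farthest to the right and pfk-1.2 lies farthest to the left.

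The levels were steady over the 6 libraries. The ratio of the highest to the lowest library had a median of 1.27 among the 35 genes, against 1.54 among the 13745 tested genes above 0 in all libraries. Of the 35 genes, 34 were above the median level of all genes tested, and the part of the level in this difference was not tested. The ratio was under 1.2 for 10 of the 35 genes and above 1.5 for 9 of them. The steadiest was ogdh-1, the first subunit of 2-oxoglutarate dehydrogenase, with 113, 107 and 105 FPKM in libraries 1, 2 and 3 of ASP, against 105, 111 and 107 in those of Control (ratio 1.07). The most variable was icl-1, the enzyme of the glyoxylate shunt that joins isocitrate lyase and malate synthase in 1 protein, with a ratio of 2.23. That ratio rests on ASP 2, without which it was 1.35 and hxk-1 had the largest of the 35 (1.91). The others above 1.5 were hxk-1 (1.91), idh-1 (1.87), gpd-1 (1.71), idh-2 (1.65), gpd-4 (1.57), pyk-2 (1.56), pfk-1.2 (1.55) and pck-1 (1.53).

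The comparison of ASP with Control asks whether aspartame, a dipeptide sweetener of aspartic acid and phenylalanine methyl ester, changes the RNA of these enzymes. None of the 35 genes passed in edgeR's quasi-likelihood test at an adjusted p under 0.05, and 0% of all 13790 genes did. No member had an unadjusted p under 0.05 either, against 0.45% of all genes (62 genes), and DESeq2 and limma on FPKM likewise gave 0 members at both levels. These fits have no term for the library number, so differences between numbers count in their error. With the number as a second term (a block) in edgeR, 1 of the 35 genes and 2.68% of all genes had an unadjusted p under 0.05. Without the block the differences were small, from log2 −0.19 to 0.07 (ASP minus Control), with a median standard error (SE) of 0.11. The median was −0.06, against 0.00 for all genes tested. Of the 35 genes, 30 lay below 0, against 50% of all genes. None of the 35 had groups that did not overlap, against 3.39% of all genes.

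**Figure D2:**
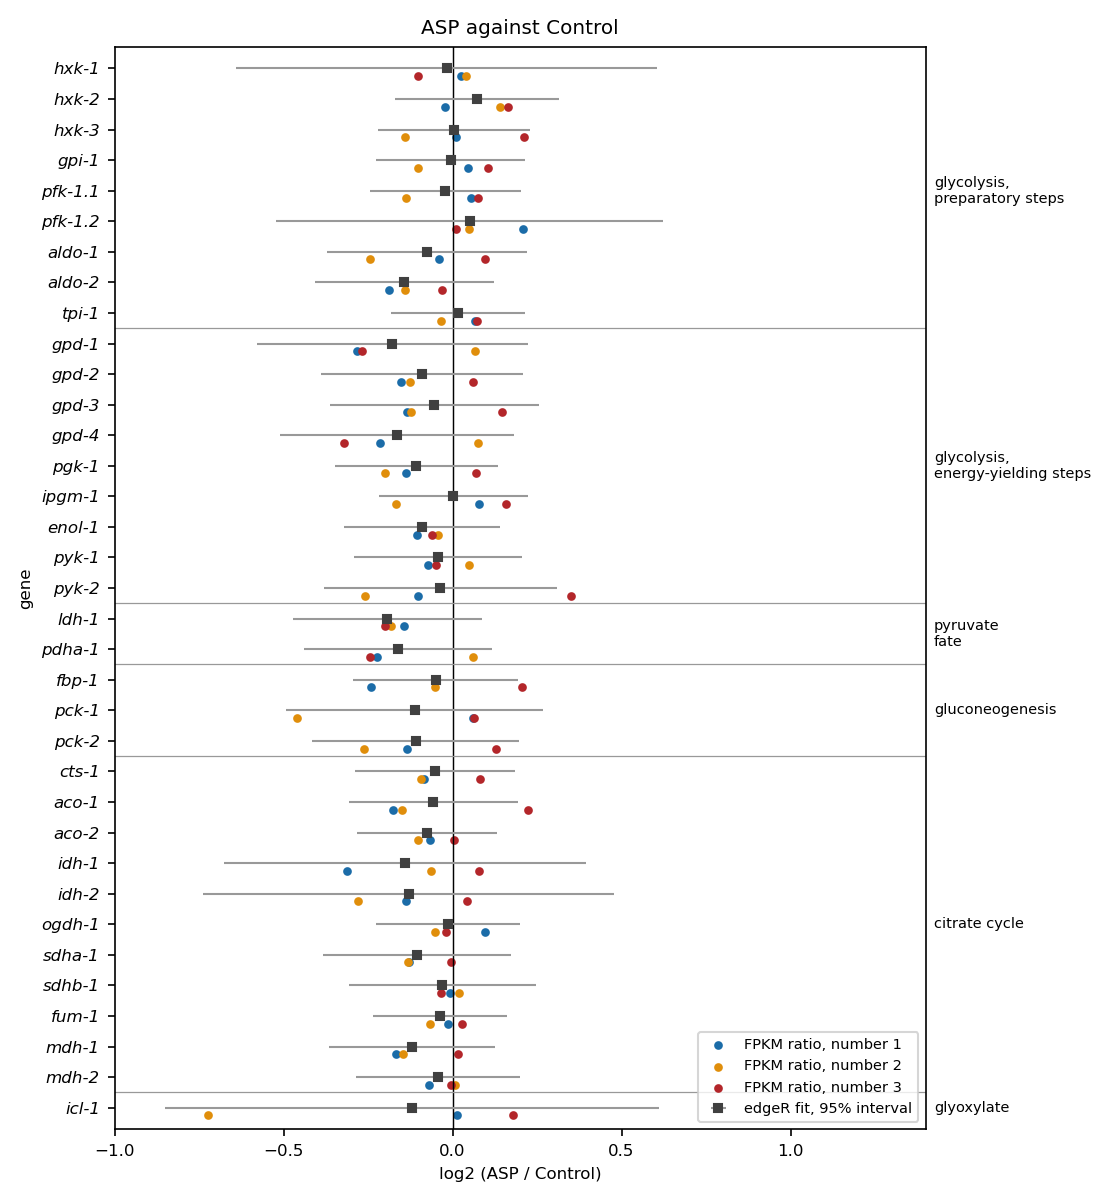
The log2 difference ASP minus Control of each gene: squares are the edgeR estimates with their 95% intervals, and coloured points are the FPKM ratios within libraries of 1 number. All 35 intervals cross 0, and the points of the 3 numbers scatter to both sides for most genes.

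The sign of the FPKM ratios, which carry any shift common to all genes, differed between the library numbers. In number 1, 25 of 35 genes were lower in ASP than in Control (median log2 of FPKM −0.08, all genes tested 0.02), and in number 2, 26 of 35 were lower (median −0.10, all genes −0.03). In number 3, 23 of 35 were higher (median 0.06, all genes 0.07). The median of the 35 genes thus lay below that of all genes tested in each number. Of the 35 genes, only aldo-2, enol-1, ldh-1 and sdha-1 were lower in ASP in all 3 numbers, which held for 8.88% of all genes. Of the 35, pfk-1.2 alone was higher in all 3, which held for 12.8% of all genes.

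Of these, ldh-1, lactate dehydrogenase, which turns pyruvate into lactate, had the smallest p of the 35 genes. It stands on chromosome II at 11724204 to 11726533 of build WBcel235, and its coding gene has the identifier 174798 in the table. Its level was 66.3, 54.9 and 52.4 FPKM in libraries 1, 2 and 3 of ASP, against 73.2, 62.2 and 60.2 in those of Control. ASP was the lower library in each number, yet ASP 1 exceeded Control 2 and Control 3, so the groups overlapped. The log2 difference was −0.19 (SE 0.12, 95% interval −0.47 to 0.09, edgeR's adjusted p 0.9999). With the library number as a block the estimate stayed at −0.19 with a smaller error (SE 0.07, 95% interval −0.34 to −0.04, adjusted p 0.997). It was then the only member with an unadjusted p under 0.05, against 2.68% of all genes.

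The next lower genes by p did not pass. pdha-1, the alpha subunit of pyruvate dehydrogenase, which feeds pyruvate into the citrate cycle, had 144, 151 and 141 FPKM in the ASP libraries and 168, 145 and 167 in the Control libraries. ASP was the lower library in numbers 1 and 3, and ASP 2 exceeded Control 2 (log2 −0.16, SE 0.12, adjusted p 0.9999). aldo-2 had 360, 337 and 306 FPKM in the ASP libraries and 410, 372 and 312 in the Control libraries, and the groups overlapped (log2 −0.14, SE 0.11, adjusted p 0.9999). Among genes above 0, hxk-2, a hexokinase, had 26.97, 26.5 and 24.0 FPKM in the ASP libraries and 27.4, 24.0 and 21.4 in the Control libraries, which overlapped (log2 0.07, SE 0.10). tpi-1, triosephosphate isomerase, had 260.2, 244 and 246 FPKM under aspartame and 248, 249 and 234 without it, again with overlap (log2 0.02, SE 0.08). pfk-1.2 stood at log2 0.05 (SE 0.24). These 3 were the genes above 0 with the smallest p, and none passed (adjusted p 0.9999 in edgeR). For pfk-1.2 the sign turned without ASP 3, Control 1 or Control 2 (log2 −0.1194, −0.0956 and −0.0216), fits that leave a number with 1 library. With the block it was 0.07 (SE 0.09), and above 0 as well after leaving out both libraries of number 1, 2 or 3 (0.0085, 0.06 and 0.13).

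By route, the preparatory steps of glycolysis, from hexokinase to triosephosphate isomerase, had 4 genes above 0 and 5 below (median log2 −0.01). The energy-yielding steps, from glyceraldehyde-3-phosphate dehydrogenase to pyruvate kinase, had 1 above and 8 below (median −0.09), the 1 above being ipgm-1, phosphoglycerate mutase (log2 0.00). The gluconeogenic genes fbp-1, fructose-1,6-bisphosphatase, and pck-1 and pck-2, the phosphoenolpyruvate carboxykinases, stood at log2 −0.05, −0.11 and −0.11. All 11 genes grouped with the citrate cycle, among them idh-1, mdh-1 and aco-1 for cytosolic forms of its enzymes, lay below 0, from −0.01 for ogdh-1 to −0.14 for idh-1 (median −0.06), each with a 95% interval that spanned 0. In limma on FPKM 10 of the 11 lay below 0, and without Control 3 it was 7. The interval of cts-1, one of the highest genes, was −0.29 to 0.18 in log2, and −0.24 to 0.14 with the library number as a block. That of aldo-2, whose SE was the median one, was −0.41 to 0.12, and −0.31 to 0.03 with the block. The block lowered the SE of genes that differed by number, among them hxk-1 (0.26 to 0.07), idh-2 (0.25 to 0.08), pfk-1.2 (0.24 to 0.09) and idh-1 (0.22 to 0.09). For icl-1 it fell from 0.30 to 0.14.

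icl-1 (chromosome V, 724332 to 728004) had its widest gap in 1 pair of libraries. Its level was 108, 53.1 and 118 FPKM in libraries 1, 2 and 3 of ASP, against 107, 87.6 and 104 in those of Control. ASP 2 was the lowest and Control 2 the second lowest, while the other 4 lay between 104 and 118. The log2 difference of ASP and Control was −0.12 (SE 0.30, 95% interval −0.85 to 0.61), and −0.19 with the block (SE 0.14), and did not pass. The gluconeogenic gene pck-1 also had its lowest value in ASP 2, with 139, 90.8 and 116 FPKM in the ASP libraries and 133, 125 and 111 in the Control libraries. Its partner pck-2 had 142, 114 and 129 FPKM in the ASP libraries and 157, 136 and 118 in the Control libraries, where ASP 2 was again the lowest.

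Some of the 35 genes passed between number 3 and the other numbers, while 0 passed between numbers 2 and 1. Between treatments 0 passed as well, with or without the block. The contrasts between numbers show which of the enzymes varied. Each number has 2 libraries, 1 of each group, so the contrasts were fitted with the group as a second term. Between numbers 3 and 1, 6 of 35 genes passed in edgeR (17.1%), against 37.5% of all genes tested, and 9 had an unadjusted p under 0.05, against 47.2% of all. Those higher in number 3 were idh-2, pfk-1.2 and sdha-1, 3 of 35 against 18.3% of all genes, and those lower were hxk-1, idh-1 and gpd-1, 3 of 35 against 19.1%. Between numbers 3 and 2, 5 of 35 passed (14.3%), against 24.3% of all genes, and 10 had an unadjusted p under 0.05, against 38% of all. icl-1, pfk-1.2 and idh-2 were higher in number 3 (3 of 35, all genes 12.1%), and hxk-1 and idh-1 were lower (2 of 35, all genes 12.2%). Between numbers 2 and 1, 0 of 35 passed, against 3.84% of all genes (2.7% higher and 1.14% lower), and 8 of 35 had an unadjusted p under 0.05, against 18% of all genes. DESeq2 called 2 in that contrast, hxk-1 and icl-1, both lower in number 2, and limma on FPKM called 0. The median size of the difference between numbers 3 and 1, regardless of sign, was 0.13 in log2 for the 35 genes and 0.32 for all genes. Whether the 35 genes differed less than other genes was not tested.

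**Figure D3:**
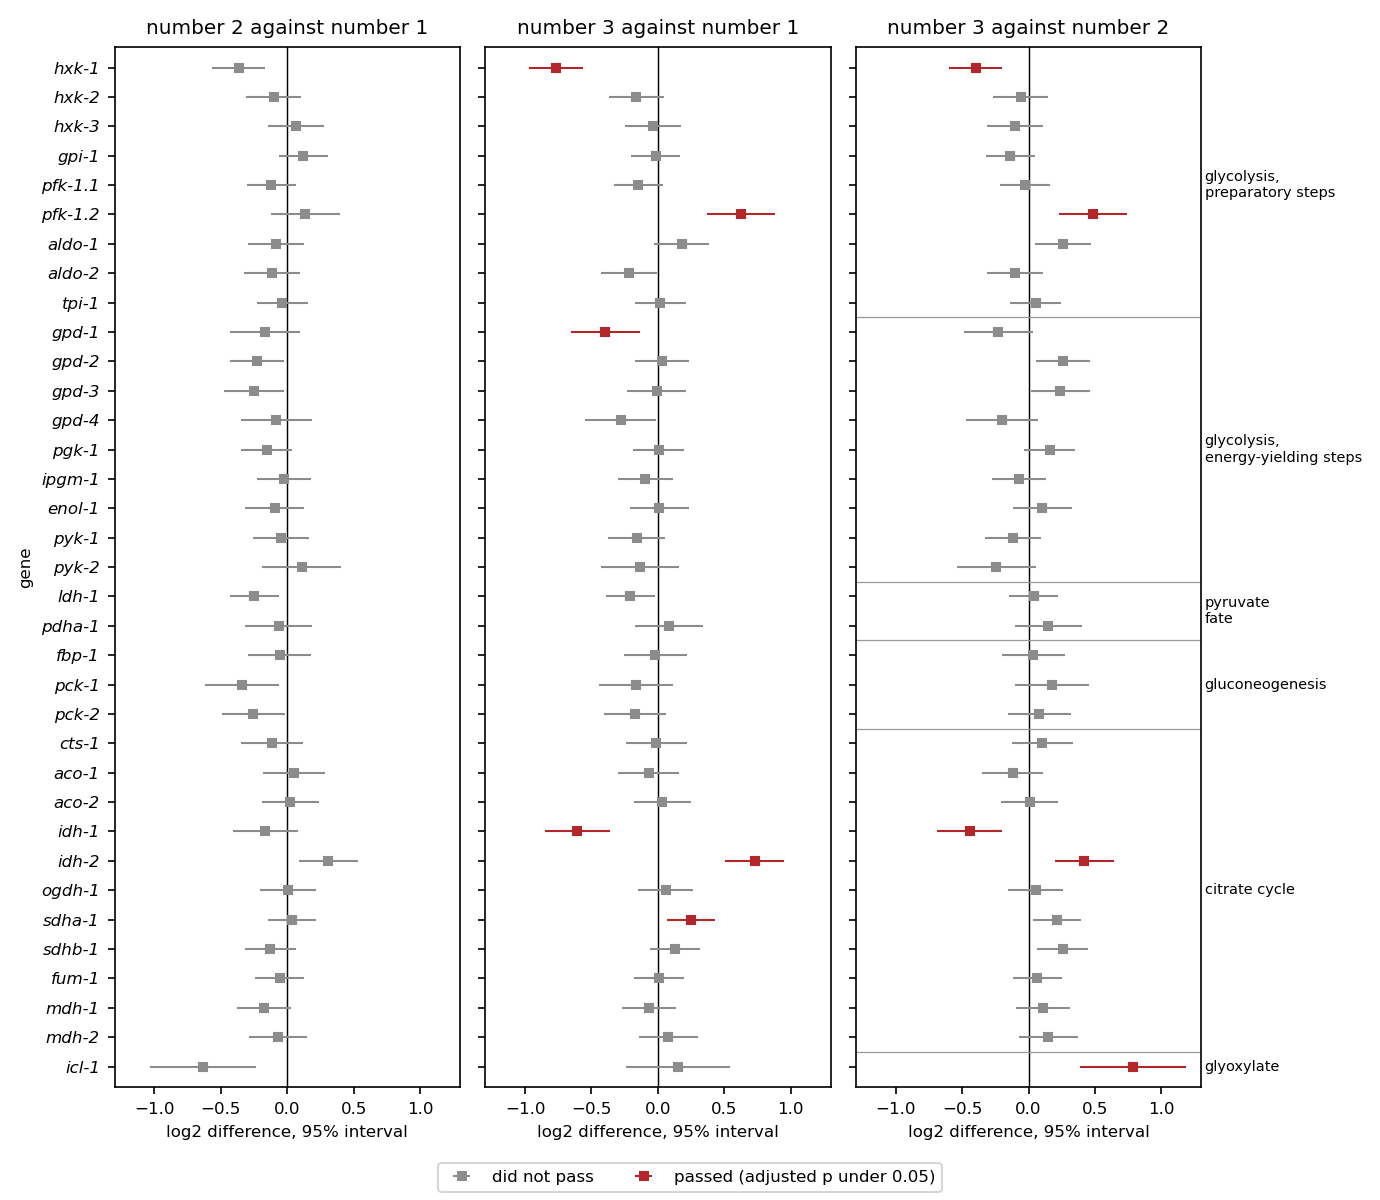
The log2 difference between libraries of 2 numbers for each gene, with 95% intervals from edgeR; red marks genes that passed at an adjusted p under 0.05. hxk-1, pfk-1.2, idh-1 and idh-2 passed in both contrasts with number 3, and no gene passed between numbers 2 and 1.

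The NADP-dependent isocitrate dehydrogenases, which turn isocitrate into 2-oxoglutarate, changed in opposite directions. idh-1, which by homology encodes the cytosolic form (chromosome IV, 9439078 to 9441107), had 203, 196 and 142 FPKM in libraries 1, 2 and 3 of ASP, against 251, 205 and 135 in those of Control. Both libraries numbered 3 lay below the other 4. The log2 difference of number 3 from number 1 was −0.61 (SE 0.11, adjusted p 0.00293), and from number 2 it was −0.44 (SE 0.11, adjusted p 0.0194).

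idh-2, by homology the mitochondrial form (chromosome X, 11216000 to 11218150), had 18.99, 22.3 and 31.3 FPKM in the ASP libraries and 20.9, 27.1 and 30.3 in the Control libraries. Here both libraries numbered 3 lay above the other 4. Number 3 exceeded number 1 by log2 0.73 (SE 0.10, adjusted p 0.000741) and number 2 by 0.42 (SE 0.10, adjusted p 0.0160). The share of idh-2 in the summed FPKM of both genes was 8.57% and 7.67% in the libraries numbered 1, 10.2% and 11.6% in those numbered 2, and 18.0% and 18.4% in those numbered 3 (ASP, then Control). The call for idh-1 between numbers 3 and 1 was lost without Control 1 (log2 −0.44, adjusted p 0.0611). Between numbers 3 and 2, the call for idh-1 was lost without ASP 2, Control 2 or Control 3 (adjusted p 0.124, 0.0616 and 0.0754), and that for idh-2 without ASP 2 or Control 2 (0.155 and 0.0625) and in limma on log2(FPKM + 1) (0.0744). With no filter on low values, both genes lost the call between numbers 3 and 2. The difference between the isozymes was not itself tested.

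Of the 3 hexokinases, which phosphorylate glucose at the entry to glycolysis, hxk-1 changed. It stands on chromosome I at 9271479 to 9278689. Its level was 66.7, 51.7 and 34.97 FPKM in libraries 1, 2 and 3 of ASP, against 65.5, 50.3 and 37.5 in those of Control. The values of each number lay close together and those of different numbers did not overlap. Number 3 was lower than number 1 by a log2 difference of −0.77 (SE 0.09, adjusted p 0.000339) and than number 2 by −0.40 (SE 0.09, adjusted p 0.0133). Number 2 against number 1 gave −0.37 (SE 0.09, adjusted p 0.0605), which did not pass. That difference did pass in DESeq2 and without the group as a term, and also without ASP 3 or Control 3, which leaves number 3 with 1 library. The call between numbers 3 and 2 was lost with no filter on low values and without ASP 2 (log2 −0.33), which leaves number 2 with 1 library. hxk-2 stood at log2 −0.16 (SE 0.09) and hxk-3 at −0.04 (SE 0.09) between numbers 3 and 1 and did not pass. hxk-1 made up 52.2% and 51.6% of hexokinase FPKM in the libraries numbered 1 and 37.9% and 42.8% in those numbered 3.

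The next committed step, phosphofructokinase, has 2 genes. pfk-1.2 (chromosome V, 9531801 to 9534537) had 8.48, 8.79 and 11.4 FPKM in the ASP libraries and 7.34, 8.50 and 11.3 in Control, with both libraries numbered 3 above the other 4. It was higher in number 3 than in number 1 by log2 0.63 (SE 0.11, adjusted p 0.00325) and than in number 2 by 0.49 (SE 0.11, adjusted p 0.0157). The latter call was lost without ASP 2, Control 2 or Control 3 (adjusted p 0.106, 0.119 and 0.0609) and in limma on log2(FPKM + 1) (0.0756). With no filter on low values that call was lost as well. pfk-1.1, the gene with the higher level, had 24.6, 21.1 and 20.9 FPKM in the ASP libraries and 23.8, 23.2 and 19.9 in the Control libraries. Its difference between numbers 3 and 1 was log2 −0.15 (SE 0.08, adjusted p 0.189). The share of pfk-1.2 was 25.6% and 23.6% in number 1 and 35.2% and 36.3% in number 3.

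**Figure D4:**
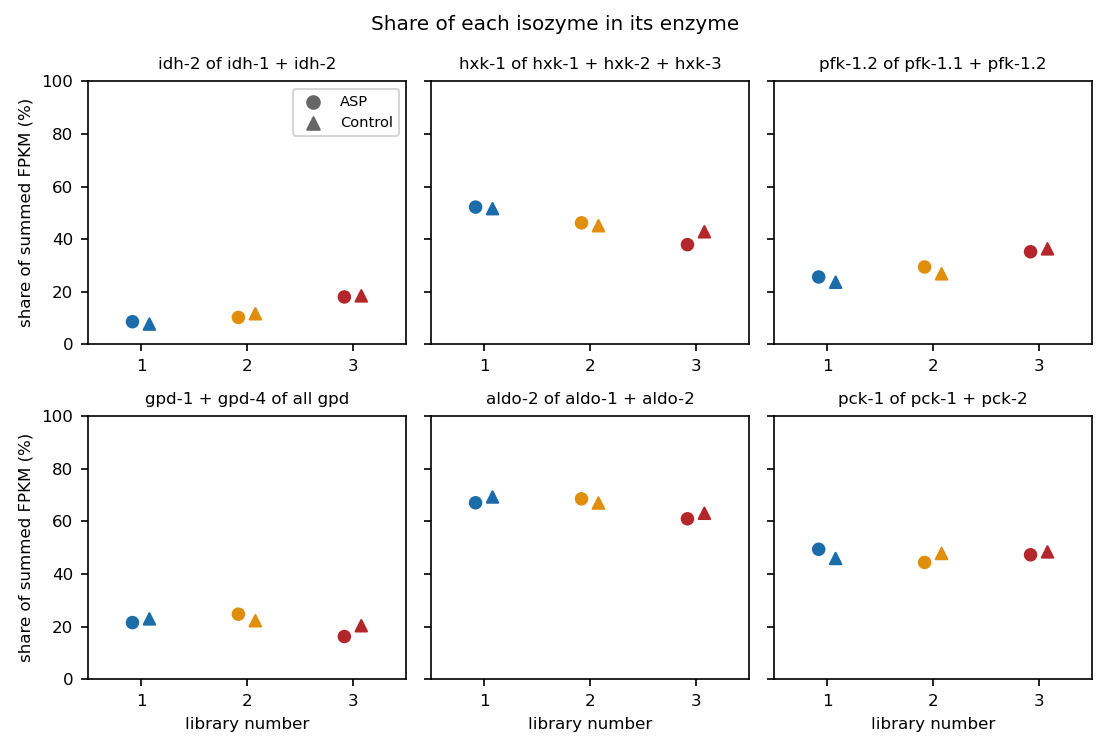
Share of 1 isozyme in the summed FPKM of all genes for the same enzyme, in percent, by library number; circles are ASP and triangles Control. The share of idh-2 was 7.67% and 8.57% in number 1 and 18.0% and 18.4% in number 3, and the shares of hxk-1 and of gpd-1 with gpd-4 were lowest in number 3.

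Glyceraldehyde-3-phosphate dehydrogenase, the first energy-yielding step, has 4 genes in 2 near-identical pairs, gpd-1 with gpd-4 on chromosome II and gpd-2 with gpd-3 on chromosome X. The latter lie 101 bases apart on the same strand and belong to 1 operon. In worms gpd-2 and gpd-3 are known as the major genes of the body wall muscle after hatching, and gpd-1 and gpd-4 as the minor forms found in the embryo. Reads of a pair may have been split between its genes by the counting, so single values are uncertain. gpd-1 and gpd-4 summed to 178, 181 and 129 FPKM in libraries 1, 2 and 3 of ASP, against 213, 172 and 158 in those of Control, with the libraries numbered 3 lowest in each group. gpd-1 was lower in number 3 than in number 1 (log2 −0.39, SE 0.11, adjusted p 0.0265). For gpd-4 the difference was −0.28 (SE 0.12, adjusted p 0.0937) and did not pass in edgeR on all 6 libraries. gpd-4 did pass as lower in limma on FPKM, and without ASP 2, Control 2 or Control 3, fits that leave a number with 1 library. The difference between gpd-1 and gpd-4 was not tested.

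gpd-2 and gpd-3 summed to 651, 552 and 666 FPKM in the ASP libraries and 718, 602 and 617 in the Control libraries, with the libraries numbered 2 lowest in each group. They did not pass between numbers 3 and 1 (log2 0.03, SE 0.09, and −0.01, SE 0.10). Their differences between numbers 3 and 2 were 0.26 (SE 0.09, adjusted p 0.0683) and 0.24 (SE 0.10, adjusted p 0.108) in edgeR, while DESeq2 called gpd-2. The body wall muscle markers summed to 3306, 2882 and 3219 FPKM in ASP 1, 2 and 3 and to 3428, 2885 and 3445 in Control, so they were also lowest in number 2, and 4 of 9 passed as higher in number 3 than in number 2. Their part in the values of gpd-2 and gpd-3 was not tested. The call for gpd-1 was lost without ASP 3 (log2 −0.28, adjusted p 0.0792) or Control 1 (log2 −0.30, adjusted p 0.195) and with no filter on low values (adjusted p 0.141).

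In the citrate cycle, sdha-1, the flavoprotein subunit of succinate dehydrogenase, had 48.0, 48.9 and 55.5 FPKM in the ASP libraries and 52.5, 53.6 and 55.7 in the Control libraries. It was higher in number 3 than in number 1 (log2 0.25, SE 0.08, adjusted p 0.0368). This call was lost without ASP 1, ASP 3 or Control 1 (adjusted p 0.356, 0.101 and 0.211), with no filter (0.0778) and in limma on log2(FPKM + 1) (log2 0.15, adjusted p 0.203). sdhb-1, the iron-sulfur subunit of the same complex, stood at 0.13 (SE 0.08, adjusted p 0.256). The other 7 citrate cycle genes, fum-1 (fumarase), mdh-1 and mdh-2 (cytosolic and mitochondrial malate dehydrogenase), cts-1, aco-1 and aco-2 (cytosolic and mitochondrial aconitase) and ogdh-1, did not pass in edgeR in any contrast between numbers. In glycolysis the same holds for gpi-1 (glucose-6-phosphate isomerase), aldo-1, aldo-2, tpi-1, pgk-1 (phosphoglycerate kinase), ipgm-1, enol-1, pyk-1 and pyk-2, and for ldh-1, pdha-1, fbp-1, pck-1 and pck-2. Some of them passed elsewhere: aldo-2, pyk-1 and ldh-1 in limma as lower in number 3 than in number 1, and sdhb-1, in number 3 against number 2, as higher without the group term or without ASP 3. Of the fits that left out 1 library, those without ASP 3 also called pyk-2, pck-1 and ldh-1, that without Control 2 pck-1, and that without Control 3 aldo-1, each in at least 1 contrast.

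icl-1 was higher in number 3 than in number 2 by log2 0.79 (SE 0.17, adjusted p 0.0135), and number 2 stood below number 1 by log2 −0.63 (SE 0.17, adjusted p 0.0922, not passing). Numbers 3 and 1 differed by 0.15 (SE 0.17, adjusted p 0.515). With no filter on low values the call between numbers 3 and 2 was lost. Without ASP 3, Control 1, Control 2 or Control 3, and in DESeq2, number 2 against number 1 passed for icl-1 (log2 −0.65, −0.78, −1.02, −0.64 and −0.63). Without ASP 2, the library with the lowest value, it did not (log2 −0.27, adjusted p 0.313), and the difference of number 3 from number 2 was 0.42 (adjusted p 0.0475).

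Between numbers 2 and 1, the other genes with the smallest p in each direction did not pass in edgeR on all 6 libraries either. ldh-1 stood lower in number 2 (log2 −0.25, SE 0.08, adjusted p 0.151), and idh-2 stood higher (log2 0.31, SE 0.10, adjusted p 0.141), as did pfk-1.2 (log2 0.14, SE 0.11, adjusted p 0.593). gpi-1 had 75.04, 77.1 and 70.6 FPKM in the ASP libraries and 72.7, 82.8 and 65.7 in the Control libraries, where number 2 was highest in each group (log2 0.12, SE 0.08, adjusted p 0.492). Without ASP 3, ldh-1 and idh-2 passed (adjusted p 0.0484 and 0.0333), as did idh-2 without Control 3 (0.0283).

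Both counts with number 3 rested in part on single libraries. Without Control 1, idh-2, pfk-1.2 and hxk-1 still passed between numbers 3 and 1, and idh-1, gpd-1 and sdha-1 did not. Without ASP 2, icl-1 still passed between numbers 3 and 2, and the other members did not. Each of these fits leaves a number with 1 library, and fewer of all genes passed in them too. Whether the members lost more calls than other genes was not tested. On the FPKM as deposited, limma split the calls between numbers 3 and 1 into 2 higher and 7 lower, against 3 and 3 (all genes 1884 higher and 3323 lower, against 2527 and 2640), and those between numbers 3 and 2 into 1 higher and 2 lower, against 3 and 2 (all genes 1096 and 2098, against 1670 and 1676). The median of all genes then lay at log2 −0.10 for number 3 against number 1 (−0.11 with a pseudocount of 0.1), against −0.01 in edgeR, so the levels in FPKM and the edgeR differences are on scales shifted by that much. The members lower by limma were hxk-1, idh-1 and gpd-1, as in edgeR, and also aldo-2, gpd-4, pyk-1 and ldh-1. Beside these calls, all 11 oocyte and eggshell markers and all 6 yolk genes passed as lower in number 3 than in number 1 (median log2 −1.29 and −1.44), and 13 of 14 molting and cuticle markers passed as higher and 1 as lower (median 2.47). The part of this difference in the values of the enzyme genes was not tested. What else differs between the numbers cannot be told apart from it, since each number is 2 libraries.

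Of 55 other genes of sugar and pyruvate metabolism, all tested, 0 passed between ASP and Control (median log2 −0.03). None had an unadjusted p under 0.05 in edgeR. Between numbers 2 and 1, 0 passed. In number 3 against number 1, 7 passed as higher and 16 as lower, which is 41.8%, and between numbers 3 and 2, 3 passed as higher and 5 as lower, or 14.5%. Of all genes, 37.5% passed between numbers 3 and 1 (18.3% higher and 19.1% lower) and 24.3% between numbers 3 and 2 (12.1% higher and 12.2% lower). The lower genes of both contrasts include F21D5.1 and ogdh-2, whose annotations, given below, lie outside these routes.

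Among 16 genes of glycogen and trehalose metabolism, 2 passed as higher and 7 as lower between numbers 3 and 1 (median log2 −0.24), against 18.3% and 19.1% of all genes. The 7 include the next gene named. The smallest p belonged to F21D5.1, which the deposited table annotates as phosphoacetylglucosamine mutase, an enzyme of amino sugar synthesis and not of glycogen. It had 35.7, 31.4 and 22.3 FPKM in the ASP libraries and 38.4, 35.4 and 21.1 in the Control libraries, with both libraries numbered 3 lowest (log2 −0.67, SE 0.09, adjusted p 0.000571). T04A8.7, annotated as the glycogen branching enzyme, had 32.9, 35.8 and 24.96 FPKM under aspartame and 36.9, 35.7 and 24.5 without it (log2 −0.40, SE 0.09, adjusted p 0.00828). rml-1, annotated as the enzyme that joins UTP and glucose-1-phosphate, had 103, 88.8 and 75.7 FPKM under aspartame and 109.6, 92.3 and 77.6 without it (log2 −0.37, SE 0.08, adjusted p 0.00872). tre-5, a trehalase gene, was higher in number 3, at 1.65 to 3.13 FPKM over the 6 libraries (log2 0.88, SE 0.21, adjusted p 0.0128).

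Fructose 2,6-bisphosphate is the signal that switches phosphofructokinase on, and pfkb-1.2 encodes one of the bifunctional enzymes that make and break it. It had 28.9, 23.4 and 20.5 FPKM in the ASP libraries and 27.7, 24.7 and 19.2 in the Control libraries, and it was lower in number 3 than in number 1 (log2 −0.41, SE 0.09, adjusted p 0.00805). gpdh-1, a glycerol-3-phosphate dehydrogenase that draws on the triose phosphates of glycolysis, had 16.2, 15.7 and 8.05 FPKM in the ASP libraries and 14.8, 14.3 and 10.1 in the Control libraries, with number 3 lowest in both (number 3 against number 2, log2 −0.63, SE 0.16, adjusted p 0.0245). In the pyruvate carrier of mitochondria, the subunits mpc-1 and mpc-2 were lower in number 3 than in number 1 (log2 −0.41, SE 0.10, and −0.42, SE 0.10).

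pck-3, another gene annotated as phosphoenolpyruvate carboxykinase, had 11.8, 12.2 and 13.9 FPKM in the ASP libraries and 10.6, 12.2 and 14.9 in the Control libraries. It was highest in number 3 in both groups, by log2 0.47 over number 1 (SE 0.11, adjusted p 0.0131), where pck-1 and pck-2 did not pass (log2 −0.17 and −0.17). Of 14 other citrate cycle genes, 3 passed as higher and 1 as lower, or 28.6%, against 37.5% of all genes. One of them, sucl-2, annotated as a succinate-CoA ligase subunit, had 98.4, 99.4 and 119 FPKM in the ASP libraries and 102.8, 101.1 and 117 in the Control libraries (log2 0.33, SE 0.08, adjusted p 0.0112). The lower one, ogdh-2, is annotated as a homolog of DHKTD1, a relative of the 2-oxoglutarate dehydrogenase subunit that acts in lysine breakdown.

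Of 16 regulators known for this metabolism, 0 passed between ASP and Control, with 0 at an unadjusted p under 0.05 in edgeR. In number 3 against number 1, 4 passed, all lower, which is 25% against 37.5% of all genes (19.1% lower). mxl-2, a partner of the Myc-like factor MML-1, had 36.8, 31.6 and 21.5 FPKM in the ASP libraries and 41.8, 30.03 and 22.3 in the Control libraries (log2 −0.74, SE 0.12, adjusted p 0.00203). The others were nhr-68, a nuclear receptor of the propionate response (log2 −0.68, SE 0.12), sbp-1, the worm SREBP (−0.46, SE 0.10), and daf-2, the insulin receptor (−0.40, SE 0.10). nhr-68 was also lower in number 2 than in number 1 (log2 −0.87, SE 0.12, adjusted p 0.00778). hif-1, the hypoxia factor, which in worms and mammals raises glycolytic genes, ran from 56.0 to 59.5 FPKM over the 6 libraries.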

How the data were processed

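Per the file headers, the deposited table holds FPKM and count columns for every library, and all of them were used. The authors' FPKM correct for gene length and library depth. Deposited counts are whole numbers and were treated as estimated counts. No source used here names the aligner, counter or strand setting. CASAVA 1.4 and 2 mouse builds stand in the submitters' processing notes, but chromosome accessions match WBcel235, whose coordinates are printed from the file. All 35 genes are protein-coding in Ensembl's WBcel235 annotation, 30 with the same span. No sequences were used.

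Counts of 13790 genes averaging at least 1 FPKM were tested with edgeR 4.0.16 (quasi-likelihood, TMM, R 4.3.3) and Benjamini-Hochberg adjustment over all of them, with a threshold of 0.05. ASP against Control had no other term, and contrasts between library numbers had the group as a second term. Intervals are 95%. Simulated data were fitted with group and number as terms, and not with the group alone, the model used for ASP against Control. DESeq2 1.42.0, limma 3.58.1 on log2 FPKM, RLE scaling, other filters, a replicate block and leaving out each library served as alternatives.

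Deviations from the group means correlated within each number (0.811, 0.524 and 0.822), so the numbers were read as pairing the libraries. Neither the meaning of a number nor separate cultures are stated, so p-values measure only the spread among these 6 libraries, which may be technical. The members and lists were chosen with earlier results of these data known. Full values go to up to 6 members per direction that pass, or the 3 with the smallest p, and to some of the up to 4 other genes per list. icl-1 between treatments, pck-1, pck-2, ogdh-1, hif-1, ogdh-2, mpc-1 and mpc-2 were named after their values were seen. An entry that proved to be pgk-1 was dropped from the list of other genes, and 1 intestine marker was not found.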

Additional observations from a re-analysis of the deposited data

How the results depend on the processing

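Between ASP and Control, 0 of the 35 genes passed under any alternative run, and the median log2 ran from −0.0998 (without Control 2) to −0.0329 (without ASP 2 or Control 1). With the replicate number as a block the count was 0 and the median −0.0556, and the block changed no call. With the block and without the libraries numbered 1, 2 or 3, settings chosen after seeing the data, the count was also 0. Of all genes these fits called 3 without number 1, 0 without number 2 and 39 without number 3 (5 higher and 34 lower), against 0 in the other alternatives. In these fits 0, 4 and 3 of the 35 genes had an unadjusted p under 0.05. The share of all genes at that level was not counted for them, so these counts cannot be set against it. The log2 of pfk-1.2 ran from −0.1194 to 0.2985 when 1 library was left out and was below 0 without ASP 3 (−0.1194), Control 1 (−0.0956) or Control 2 (−0.0216). That of tpi-1 was −0.0019 with the block and without the libraries numbered 1. Between numbers 2 and 1, where 0 genes passed, DESeq2 called 2 and the fit without the group term 1, and leaving out 1 library gave 0 to 5. Between numbers 3 and 1, with 6 calls, leaving out 1 library gave 3 to 7, and no filter 4, without gpd-1 and sdha-1. Between numbers 3 and 2, with 5 calls, limma on log2(FPKM + 1) or log2(FPKM + 0.1) called 3, no filter 0, and leaving out 1 library gave 1 to 7. Over all genes, no filter (25212 genes tested) called 9 between numbers 2 and 1, against 530, 3116 between numbers 3 and 1, against 5167, and 1195 between numbers 3 and 2, against 3346. Between numbers 2 and 1, DESeq2 called 875 genes and limma 297 or 304. The cause was not tested. Each fit that left out 1 library leaves a number with 1 library, and calls over all genes moved in these fits too. Between numbers 2 and 1, the fits without ASP 3 and without Control 3 called the most members and also the most of all genes. The fit with the fewest members called the fewest of all genes between numbers 3 and 1 (without Control 1) and between numbers 3 and 2 (without ASP 2). Whether the members moved more than other genes was not tested.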
